A study of Mus musculus with 14 samples.

Results

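AP-1 is a family of dimeric transcription factors, and its genes are among the first to be transcribed when a cell receives a stimulus. Followed here are the transcripts of 10 such early genes: *Fos*, *Fosb*, *Fosl1* and *Fosl2* (the Fos family), *Jun*, *Junb* and *Jund* (the Jun family), *Atf3*, *Egr1* and *Ier3*. The members were chosen by name, as all non-control probes of the array that carry one of these gene names, which gave 11 probes. *Jund* stands on this array under its older symbol Jund1, and its 1 probe was added through its RefSeq accession, so that 12 of 41174 probes were followed, for 10 of the 27962 gene names on the array. All 12 were well above background on every array on which they had a value, and none was saturated on any array. *Fosl2* and *Junb* had 2 probes each. Where 1 value per gene is given, it is that of the brighter probe.

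The samples came from mouse embryonic fibroblasts (MEFs) of the NIH 3T3 type that lack the NF-κB subunit p65 (*p65*(-/-)). These cells were complemented by lentiviral infection with myc-tagged p65 wild type, with the acetylation-deficient mutant KTR (K310/314/315R) or K314/315R, or with the control vector pTV, which leaves them without p65. Blasticidin-selected pools rather than single clones were used, and every group was starved overnight. Arrays were made after 3 h with 30 ng/ml mouse TNFα for wild type (n = 3), KTR (n = 3), K314/315R (n = 2) and pTV (n = 3), and for unstimulated wild type cells (0 h, n = 3). RNA of the replicates was isolated on different days. No unstimulated array of pTV or of a mutant was analysed here, so the change after TNFα is known for wild type cells alone, and a difference between lines at 3 h may already have been there before the stimulus. Total RNA from a culture also does not tell apart fewer cells that make a transcript and less transcript per cell.

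As background, Fos proteins cannot pair with each other and bind DNA as heterodimers with Jun proteins, whereas Jun proteins also form homodimers. The dimers bind the TPA response element, and those with ATF members also the related cyclic AMP response element. Binding of TNFα to its receptor activates both the IKK pathway, which releases p65 into the nucleus, and the MAP kinases JNK, p38 and ERK, which phosphorylate Jun, ATF and ternary complex factors and thereby switch on early genes. *Fos* and *Egr1* are classic immediate early genes, with transcripts that rise within minutes and decay quickly, while *Fosl1* follows later and is itself an AP-1 target. ATF3 is a stress-induced bZIP factor that can repress. IER3 is not a transcription factor: it is an early response protein that influences cell survival and is a known NF-κB target.

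Promoter sequences show which of these elements lie close to the genes that the results turn on. RefSeq windows on the GRCm38.p6 build were at hand for 8 of the 10 genes, and 250 bases before the transcription start are given for 4 of them, *Fos*, *Atf3* and *Ier3* because they rose after TNFα and *Jun* because it was lower in every p65-expressing line than in pTV. The windows are chr12:85473640-85473889 (plus strand), chr1:191183334-191183583 (minus strand), chr17:35821463-35821712 (plus strand) and chr4:95052223-95052472 (minus strand). Each is written 5′ to 3′ on the strand of its gene, with matches to the searched motifs in capitals:
Fos: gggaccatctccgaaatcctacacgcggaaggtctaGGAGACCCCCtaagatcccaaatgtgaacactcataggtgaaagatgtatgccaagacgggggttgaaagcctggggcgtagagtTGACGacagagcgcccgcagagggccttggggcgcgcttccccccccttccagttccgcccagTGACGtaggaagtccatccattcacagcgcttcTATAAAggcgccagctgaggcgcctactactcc
Atf3: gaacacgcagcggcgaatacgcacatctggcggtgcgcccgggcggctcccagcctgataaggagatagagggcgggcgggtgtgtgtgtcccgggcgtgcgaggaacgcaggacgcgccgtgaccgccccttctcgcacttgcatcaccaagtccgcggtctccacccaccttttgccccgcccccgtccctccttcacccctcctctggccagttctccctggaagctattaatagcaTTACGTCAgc
Ier3: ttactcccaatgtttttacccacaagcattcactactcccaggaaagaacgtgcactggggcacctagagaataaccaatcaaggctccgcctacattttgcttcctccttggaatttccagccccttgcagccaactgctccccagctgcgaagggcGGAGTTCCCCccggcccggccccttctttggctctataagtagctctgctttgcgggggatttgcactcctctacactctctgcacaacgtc
Jun: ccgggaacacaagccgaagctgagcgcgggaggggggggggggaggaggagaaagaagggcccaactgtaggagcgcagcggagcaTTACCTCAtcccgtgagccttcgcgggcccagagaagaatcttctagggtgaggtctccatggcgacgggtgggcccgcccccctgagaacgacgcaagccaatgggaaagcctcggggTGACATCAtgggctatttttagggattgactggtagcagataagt

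Motifs were searched on both strands of the 250 bases, with positions counted from the start site, whose last upstream base is -1. The core TGACG, which cyclic AMP response elements contain, stood at -129 and -66 in *Fos*, and TATAAA at -33. In *Atf3*, TTACGTCA at -10 contains the same core on the opposite strand. *Jun* carried 2 variant elements, TTACCTCA at -164 and TGACATCA at -45. A κB motif stood at -92 in *Ier3* and at -214 in *Fos*. Over all 8 windows, TGACG was found in 4 and the κB motif in 4 (*Fos*, *Ier3*, *Fosb* and *Fosl2*), against 17.8% and 7.25% of the 32851 mouse promoters of the table. TTACGTCA was in 0.447% of these, TTACCTCA in 0.728%, TGACATCA in 2.93% and TATAAA in 12.4%. The full elements TGACTCA (4.46% of all promoters) and TGACGTCA (1.55%) and the CArG box (1.47%) had no match in the 8 windows, and GCGGGGGCG (2.57%) matched in *Fosb* and *Fosl2*. Sequence beyond the 250 bases was not searched, and *Egr1* and *Fosl1* had no window, so elements there would have been missed. A match is a run of letters and does not show that a factor binds there.

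Levels are log2 signals less the 75th percentile of their own array, and a difference of 1 is a 2-fold change. They are compared between arrays for the same probe only. Signals at the 75th percentile lay between 967 and 1442 intensity units, and 49.9% to 57.7% of the spots were well above background. Each of slides 1 to 3 held 1 array of wild type at both times, KTR and pTV, while both K314/315R arrays stood alone on slide 4 and were read with another release of the scanner software, so that slide, release and cell line cannot be told apart for this mutant. Of 10 fibroblast markers, 9 were well above background on all 14 arrays and *Pdgfrb* on 13. The endothelial markers (4 of 4), the epithelial *Cdh1* and *Epcam* and the leukocyte *Ptprc*, *Emr1* and *Itgam* were well above background on none. The brighter probe of *Rela*, the gene of p65, ranged from 1.52 to 1.54 in wild type at 3 h and from 1.00 to 1.34 in pTV (log2 difference 0.35, adjusted p = 0.213). Its dimmer probe ranged from -2.07 to -1.88 in wild type and from -2.84 to -2.31 in pTV (difference 0.61, adjusted p = 0.0218). It is not given whether these probes read the introduced p65 or the disrupted gene, so they do not check the labels.

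The first comparison asks which of the early genes still differed 3 h after TNFα from unstimulated wild type cells. Transcripts of 5 of the 10 genes rose: *Fos* 2.76-fold, *Ier3* 2.72-fold, *Fosl1* 2.47-fold, *Atf3* 2.11-fold and *Egr1* 2.06-fold. A gene was called when it passed a 1.8-fold limit and an adjusted p of 0.05 (limma, Benjamini-Hochberg over all tested probes). These 5 stand beside 1.12% of the 22172 tested probes called up by the same rule. *Junb* and *Jun* passed the adjusted p but stayed under 1.8-fold (2.71% of all tested probes were higher at that adjusted p), and *Fosb*, *Fosl2* and *Jund* passed neither. The median difference of the 12 probes was 0.76 and that of all tested probes -0.04.

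Within the Fos family, *Fos* had levels of -3.35, -3.48 and -3.37 on the unstimulated arrays and of -1.97, -2.22 and -1.60 at 3 h. All arrays at 3 h thus lay above all unstimulated ones, by 1.47 on the log2 scale (SE 0.21, adjusted p = 0.00191). *Fosl1*, which encodes FRA-1, a Fos protein without a transactivation domain of its own, lay at 0.52, 0.46 and 0.58 before and at 1.81, 1.76 and 1.90 after TNFα. Its groups were apart, and the difference was 1.30 (SE 0.13, adjusted p = 0.000134). *Fosb* had levels from -4.01 to -3.06 before and from -4.35 to -3.21 after TNFα, so the groups overlapped (difference -0.24, 95% interval -1.19 to 0.70). *Fosl2*, the gene of FRA-2, overlapped too and differed by -0.14 on both of its probes (intervals -0.38 to 0.10 and -0.51 to 0.23).

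Within the Jun family no gene passed 1.8-fold. *Jun* lay at 1.01, 1.09 and 1.19 before and at 1.43, 1.73 and 1.86 after TNFα. Its groups did not overlap, and it was 1.50-fold higher (SE of the log2 difference 0.12, adjusted p = 0.0201). *Junb*, whose product is generally a weaker activator than c-Jun, had levels of 5.97, 6.11 and 6.05 before and of 6.87, 6.59 and 6.88 after TNFα. It was 1.67-fold higher on its brighter probe (adjusted p = 0.00643) and 1.73-fold on the other (adjusted p = 0.0102). *Jund*, known for steady expression in resting cells, lay between 5.39 and 5.58 before and between 5.50 and 5.53 after TNFα (difference 0.01, interval -0.25 to 0.27).

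Of the remaining 3 genes, *Ier3* had levels of 1.38, 1.69 and 1.64 before and of 2.84, 3.12 and 3.07 after TNFα, a difference of 1.44 (SE 0.15, adjusted p = 0.000235). *Egr1*, a zinc finger factor, lay at 3.08, 3.46 and 3.44 before and at 4.17, 4.36 and 4.57 after TNFα, a difference of 1.04 (SE 0.16, adjusted p = 0.00354). *Atf3* lay at -0.95, -1.41 and -0.96 before and at 0.05, -0.31 and 0.17 after TNFα, a difference of 1.08 (SE 0.23, adjusted p = 0.0201). The groups of all 3 genes were apart. In all, 8 of the 12 probes had every array at 3 h above every unstimulated array, which 13.5% of all tested probes did.

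Within slides, the change after TNFα was 1.26 to 1.77 for *Fos*, 1.43 to 1.46 for *Ier3*, 1.29 to 1.32 for *Fosl1*, 1.00 to 1.13 for *Atf3* and 0.89 to 1.13 for *Egr1*. The call of *Atf3* was lost without replicate 1 or 3 of wild type at 3 h (adjusted p = 0.0770 and 0.0892) and without replicate 2 or 3 at 0 h (0.0898 and 0.0517), with log2 differences from 0.93 to 1.15. Over all 24 alternatives its adjusted p ran from 0.00112 to 0.339. All 5 calls were lost, with differences of 0.73 to 1.43, when the background was modelled by normexp from the local background as deposited. With the local backgrounds that the scanner software had marked as outliers (784 to 2725 spots per array) set to the median of the array, all 5 were called again. The difference of *Fos* was then 1.00. *Jun* no longer passed the adjusted p without replicate 2 or 3 of wild type at 3 h or without any 1 of the unstimulated arrays (0.0502 to 0.0940).

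**Figure D1:**
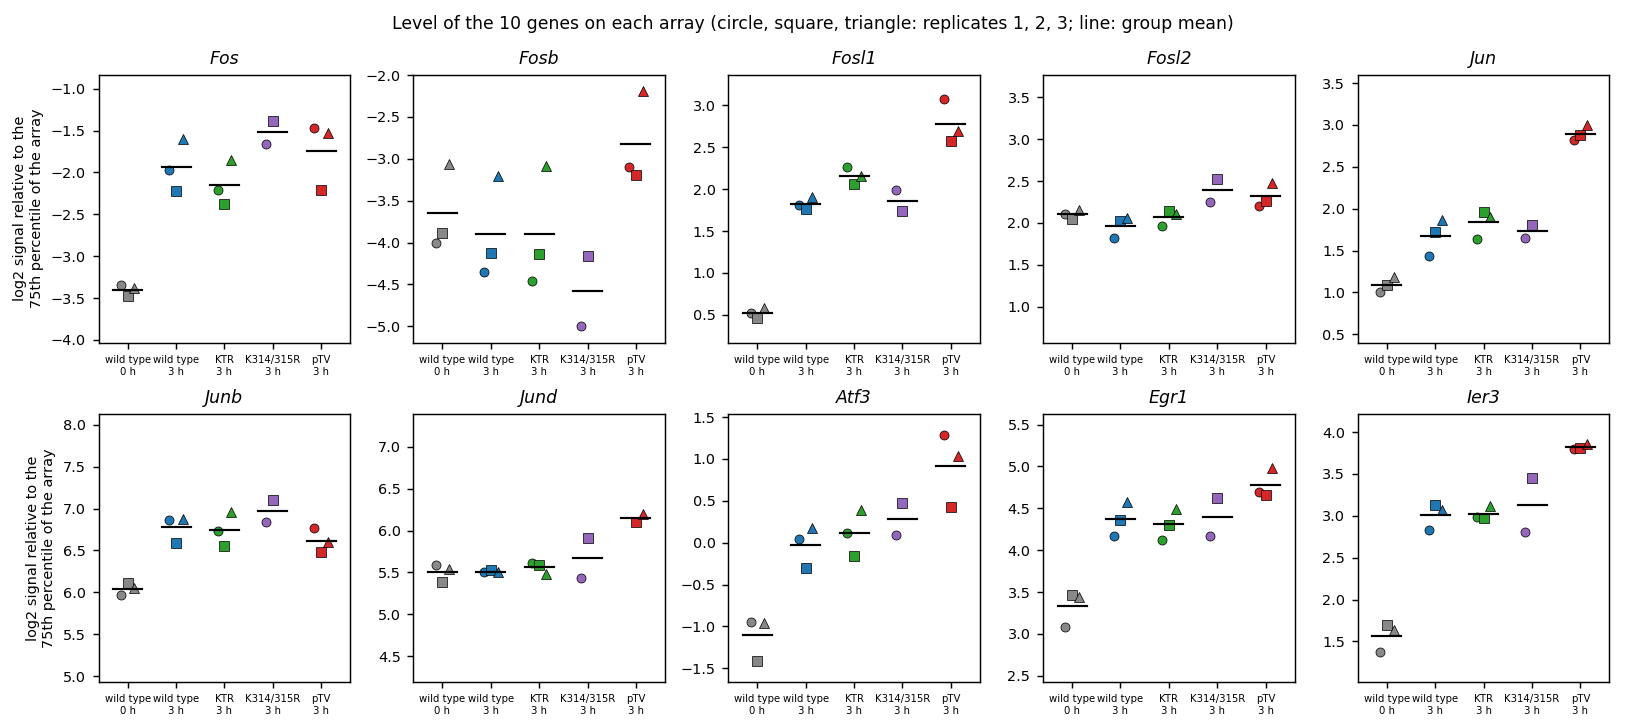
Level of each gene (brighter probe, as log2 of the signal less the array's 75th percentile) in the 5 groups, with 1 point per array and a line at the group mean. All panels span the same number of log2 units. *Fos*, *Fosl1*, *Atf3*, *Egr1* and *Ier3* were higher at 3 h than at 0 h in wild type cells, and *Jun*, *Fosl1*, *Ier3* and *Jund* were highest in pTV, with no overlap with any other group (*Egr1* too, by 0.04).

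The second comparison asks how the early genes stood at 3 h of TNFα in cells with wild type p65 against cells without p65 (pTV). Here the early genes mostly lay lower in the presence of p65. *Jun* was 2.33-fold lower in wild type than in pTV cells, and it was the 1 gene that passed both the adjusted p and the 2-fold limit used for this contrast, where 1.46% of all tested probes were called lower. *Fosl1* (1.94-fold lower), *Atf3* (1.92-fold), *Ier3* (1.75-fold) and *Jund* (1.56-fold) passed the adjusted p with less than 2-fold. At that adjusted p alone, 6.8% of all tested probes were lower. *Fosb*, *Egr1*, *Fosl2* and *Fos* also had lower means in wild type without passing the test, and *Junb* had a higher one. Both comparisons use the same wild type arrays at 3 h, so they are not independent. The median difference was -0.55 over the 12 probes and -0.03 over all tested probes.

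*Jun* encodes c-Jun, the main transactivating partner in AP-1. On the pTV arrays it lay at 2.82, 2.87 and 2.99, above every array of every other group, while the 3 wild type arrays at 3 h lay at 1.43 to 1.86. The difference was -1.22 (SE 0.12, adjusted p = 2.48e-05), and within slides 1, 2 and 3 it was -1.39, -1.15 and -1.13. *Fosl1* had pTV levels of 3.07, 2.58 and 2.70 and a difference of -0.96 (SE 0.13, adjusted p = 0.00021). *Jund*, flagged on pTV replicate 1 and therefore with 2 pTV values, lay there at 6.10 and 6.20, against 5.50, 5.53 and 5.51 in wild type (difference -0.64, SE 0.13, adjusted p = 0.00711). Its wild type and pTV ranges were apart. Within slides the difference was -1.27 to -0.80 for *Fosl1* and, on slides 2 and 3, -0.70 to -0.57 for *Jund*.

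*Ier3* lay at 3.79, 3.81 and 3.86 in pTV, above every wild type array at 3 h (difference -0.81, SE 0.15, adjusted p = 0.00287). *Atf3* lay at 1.29, 0.43 and 1.03 in pTV, apart from wild type (difference -0.94, SE 0.23, adjusted p = 0.0156). Within slides these differences were -0.96 to -0.69 for *Ier3* and -1.24 to -0.73 for *Atf3*. *Egr1* lay at 4.70, 4.66 and 4.98 in pTV, likewise apart from wild type, with a difference of -0.41 that did not pass without a block (adjusted p = 0.132) and passed with the replicate number as a block (0.0104). Its within-slide differences were -0.53, -0.30 and -0.41. *Fos* overlapped, with pTV levels of -1.47, -2.22 and -1.53 (difference -0.19, interval -0.66 to 0.27). *Junb* overlapped as well, and both its probes had a higher mean in wild type (0.16, interval -0.12 to 0.44, and 0.27, interval -0.04 to 0.59). The 2 *Fosl2* probes differed by -0.35 and -0.46 (adjusted p = 0.0523 and 0.096), and the first passed with the replicate block (0.0101).

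*Fosb* varied with the replicate number. It lay at -3.09, -3.19 and -2.19 in pTV and at -4.35, -4.13 and -3.21 in wild type, the third array being highest in both groups. The difference of -1.07 did not pass without regard to the pairing (adjusted p = 0.135). With the replicate number as a block it did (adjusted p = 0.000577), and the within-slide differences were -1.26, -0.94 and -1.01. Over all alternatives the adjusted p ran from 0.000577 to 1.00. With that gene, 2 members were called lower in wild type than in pTV.

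In all, 9 of the 12 probes had every wild type array below every pTV array, which 18.2% of all tested probes did, and none had every wild type array above. *Fosl1* passed 2-fold without pTV replicate 2 or 3 (the first with a difference of -1.06), and *Atf3* without pTV replicate 2 (-1.19) or wild type replicate 3 (-1.04). In other refits *Atf3* lost the adjusted p: without pTV replicate 1 (-0.76, adjusted p = 0.0637) or 3 (0.0552) or wild type replicate 2 (0.0668). *Jund* differed by -0.59 without pTV replicate 3, which leaves it a lone pTV value. With normexp on the deposited local background, *Fosl1* (adjusted p = 0.0964), *Ier3* (0.180), *Jund* (0.690) and *Atf3* (0.166) did not pass. The summed level of the leukocyte markers ranged from -1.39 to -0.37 in pTV and from -1.64 to -1.46 in wild type at 3 h. None of the 4 tested of 7 was called, with 3 lower and 1 higher in wild type. *Ptprc*, *Emr1* and *Itgam* were well above background on no array. In KTR the leukocyte sum overlapped with pTV (-1.43 to -0.76) and in K314/315R it lay below (-1.88 to -1.79). Of 3 epithelial markers tested, *Krt18*, a keratin gene, was called lower than in pTV in all 3 p65-expressing lines (mean level -2.94 in pTV, -5.46 in wild type, -4.79 in KTR and -5.53 in K314/315R). The summed level of the 10 fibroblast markers overlapped (10.1 to 10.3 in pTV, 10.2 to 10.3 in wild type). Of these, 3 were called higher in wild type and 1 lower. The part of these markers in the results was not tested.

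The mutants were set against the same pTV arrays to ask whether p65 that cannot be acetylated at these lysines gives the same picture. *Jun* was lower than in pTV in both: KTR had levels of 1.64, 1.96 and 1.90 (difference -1.06, SE 0.12, adjusted p = 9.68e-05) and K314/315R of 1.65 and 1.81 (-1.17, SE 0.14, adjusted p = 0.000103). It was the 1 member called in KTR over pTV, where 1.36% of all tested probes were called lower. In K314/315R over pTV, *Jun* and *Fosb* were called, and there 4.68% of all tested probes were called lower. Within slides, *Jun* in KTR over pTV differed by -1.18, -0.91 and -1.09.

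Below the 2-fold limit, *Fosl1* passed the adjusted p in both mutants (-0.62 in KTR, adjusted p = 0.00522, and -0.92 in K314/315R, adjusted p = 0.00062), as did *Ier3* (-0.80, adjusted p = 0.00342, and -0.70, adjusted p = 0.0101) and *Jund* (-0.59, adjusted p = 0.0116, and -0.48, adjusted p = 0.0341). *Atf3* passed it in KTR (-0.80, adjusted p = 0.037) and not in K314/315R (-0.63, adjusted p = 0.0931). With only the 2 compared groups in the fit, *Fosl1* (adjusted p = 0.0612) and *Atf3* (0.117) no longer passed in KTR. *Ier3* (0.0650) and *Jund* (0.184) no longer passed in K314/315R. With normexp on the deposited local background, none of these genes passed in either mutant. *Egr1* passed in neither without a block (-0.47 and -0.38). With the replicate number as a block, *Egr1* (adjusted p = 0.00508) and the brighter *Fosl2* probe (-0.25, adjusted p = 0.0460) passed in KTR. In K314/315R *Junb* then passed (0.39, adjusted p = 0.0477) and *Jund* no longer did (0.0528). The K314/315R numbers gave no clear pairing with the other arrays, so the blocked values of this mutant decide neither. Of all tested probes, 5.89% (KTR) and 13.5% (K314/315R) were lower at that adjusted p. Of the 12 probes, 8 lay apart and lower in KTR (12.1% of all tested probes did) and 7 in K314/315R (25.5%). The 2 *Junb* probes lay apart and higher in K314/315R (24.2% of all tested probes did) without passing the test when no block was used, and the dimmer had 1 value there because the spot of replicate 2 was flagged.

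*Fosb* in KTR lay at -4.46, -4.13 and -3.08, a difference of -1.07 from pTV that did not pass without a block (adjusted p = 0.128) and passed with the replicate number as a block (0.000621), with at most 0.770 over all alternatives. In K314/315R it lay at -4.99 and -4.16 (difference -1.75, SE 0.48, adjusted p = 0.0197). That call was lost without K314/315R replicate 1 (-1.34, adjusted p = 0.152) or pTV replicate 3 (-1.44, adjusted p = 0.0625), and its adjusted p ran from 0.0002 to 0.639 over all alternatives. With normexp on the deposited local background, *Jun* in KTR (-0.94, adjusted p = 0.108) and in K314/315R (-1.07, adjusted p = 0.086) and *Fosb* in K314/315R (-1.10) were no longer called. With the local backgrounds marked as outliers replaced, they were, with *Fosb* in K314/315R at -1.05. *Jun* in KTR fell just short of 2-fold without KTR replicate 1 (-0.97), and *Fosb* in KTR passed without KTR replicate 3 (-1.47). Without pTV replicate 2, *Atf3* in KTR (-1.04) and *Fosl1* in K314/315R (-1.02) passed 2-fold. The same held in K314/315R for *Ier3* without its replicate 2 (-1.02) and *Fosl1* without its replicate 1 (-1.05), which leaves a lone array that is taken to vary like the others. Without K314/315R replicate 1, by contrast, *Ier3* (-0.38, adjusted p = 0.110) and *Jund* (-0.24, adjusted p = 0.224) lost the adjusted p there. *Jund* also lost it in K314/315R without pTV replicate 2 (0.0788) or 3 (0.132) or wild type replicate 3 at 0 h (0.0501), and in KTR without pTV replicate 3 (0.0813). *Atf3* in KTR lost it without KTR replicate 1 or 2, pTV replicate 1 or 3, wild type replicate 1 at 3 h or wild type replicate 3 at 0 h, with the highest adjusted p (0.122, difference -0.61) without pTV replicate 1, and in K314/315R it passed without pTV replicate 2 (-0.88, adjusted p = 0.0251).

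**Figure D2:**
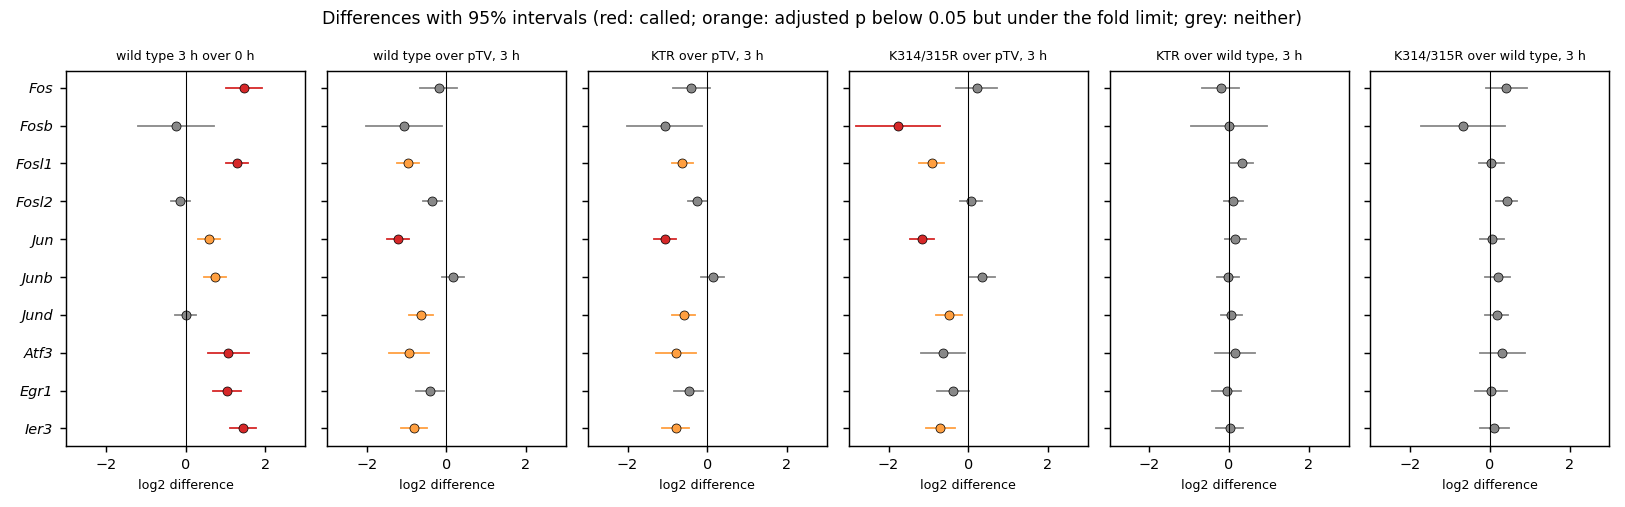
Log2 difference of each gene (brighter probe) in the 6 comparisons, with 95% intervals from the fit over all 14 arrays; colours give the call. In the 3 comparisons over pTV, *Jun* lies between -1.22 and -1.06, and in the 2 comparisons of a mutant with wild type no gene was called.

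The direct question of the study, whether the acetylation-deficient mutants differ from wild type at 3 h, gave no call among the early genes in either mutant (limma). In KTR over wild type, 0.167% of all tested probes were called either way, and in K314/315R over wild type 1.21% (268 probes, and 114 under quantile normalization). At an unadjusted p of 0.05 without a fold limit, 1 of the 10 genes passed in each, beside 9.19% (KTR) and 17.4% (K314/315R) of all tested probes. In KTR this was *Fosl1*, with levels of 2.27, 2.06 and 2.16 that all lay above the wild type arrays, as in 9.49% of all tested probes (difference 0.34, interval 0.06 to 0.61, adjusted p = 0.419). The other 9 genes differed by -0.21 (*Fos*) to 0.16 (*Jun*), and for 9 of the 10 genes the 95% interval excluded a 1.8-fold difference in either direction. The exception was *Fosb* (interval -0.94 to 0.95).

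In K314/315R the gene was *Fosl2*, whose brighter probe lay at 2.25 and 2.53, above every wild type array at 3 h (1.82 to 2.06), as in 19% of all tested probes (difference 0.42, interval 0.15 to 0.69, adjusted p = 0.0996, and 0.0149 with the replicate number as a block). Its dimmer probe pointed the other way, with levels of -2.57 and -1.90 against -1.91 to -1.82 in wild type (difference -0.37, adjusted p = 0.345). The probes also parted over pTV, where the dimmer was lower in K314/315R (-0.84, adjusted p = 0.00708) and the brighter differed by 0.07 (interval -0.20 to 0.34). The other 9 genes differed from wild type by -0.69 (*Fosb*) to 0.41 (*Fos*). The interval excluded 1.8-fold for 7 of the 10 genes, and not for *Fosb*, *Fos* and *Atf3*.

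The order of the 5 groups was alike in several genes. For *Jun*, *Fosl1*, *Ier3*, *Atf3* and *Jund*, unstimulated wild type had the lowest mean and pTV the highest, with the 3 p65-expressing lines at 3 h between them. The ranges of these 3 lines overlapped for all 5 genes, except that every *Fosl1* value of KTR lay above those of wild type and K314/315R. The pTV range stood clear of all others for *Jun*, *Fosl1*, *Ier3*, *Jund* and, by 0.04, *Egr1*. *Atf3* overlapped there with K314/315R, and *Jund* in unstimulated wild type overlapped with wild type at 3 h. For *Fos* and *Junb*, all 4 groups at 3 h overlapped with a neighbour and lay above unstimulated cells. *Egr1* had the same lowest and highest groups, with the 3 p65-expressing lines overlapping at 3 h. *Fosl2* ran from wild type at 3 h to K314/315R, whose range overlapped with that of pTV. For *Fosb*, K314/315R was lowest and pTV highest, and the range of each group overlapped with that of at least 1 other.

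Over the 14 arrays, the levels of *Egr1* and *Ier3* ran closest together among the 10 genes (Pearson r = 0.98), followed by *Fosl1* and *Ier3* (0.94) and *Atf3* and *Fosl1* (0.94), while *Fosb* and *Junb* gave -0.14. Among all tested probes of other genes, the nearest to *Jun* were *Epha2* (0.99), an ephrin receptor, and *Sinhcaf* (0.99, Tera on the array). For *Egr1* they were the early gene *Ier2* (0.98) and *Ptgs2* (0.98), the gene of cyclooxygenase-2. The nearest to *Atf3* was *Trib1* (0.98), a pseudokinase gene, that to *Fosl1* *Coq10b* (0.99, 1500041J02Rik on the array) and that to *Ier3* *Slc25a25* (0.99). *Fos* ran closest with *Cish* (0.95) and *Arid5a* (0.95), *Junb* with *Egr2* (0.95), *Fosl2* with *Vcl* (0.95) and, over 13 arrays, *Jund* with *Rab11fip5* (0.95). These values describe arrays that share groups and slides.

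A list of 24 other immediate early genes was counted in the same way. Of these, 22 were tested, and 5 rose after TNFα, led by *Egr2* (3.35-fold), *Btg2* (2.29-fold), an antiproliferative gene, and *Csrnp1* (2.21-fold). None fell, and the median difference was 0.63. Against pTV, 4 were lower in wild type and none higher. The lowest were *Ctgf* (4.64-fold lower), a matrix growth factor gene, *Arc* (2.58-fold) and the orphan nuclear receptor *Nr4a1* (2.16-fold), and the list median was -0.35. KTR had 2 (*Ctgf* 4.12-fold lower and *Nr4a1* 2.33-fold) and K314/315R 3 (*Ctgf* 4.33-fold, *Arc* 2.23-fold and *Btg2* 2.13-fold) below pTV. Beside these counts, 1.12% of all tested probes were called up after TNFα. Lower than in pTV were 1.46% (wild type), 1.36% (KTR) and 4.68% (K314/315R).

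Other bZIP factors include possible partners and relatives of AP-1. Of 23 tested, *Maff* (2.71-fold) and *Batf* (2.13-fold, well above background on 1 of 3 unstimulated arrays) rose after TNFα. In wild type over pTV 4 were higher (3.59% of all tested probes were), among them *Cebpb* (3.08-fold), *Batf* (at least 2.93-fold) and *Batf2* (at least 1.15-fold), both well above background on no pTV array. The bound of *Batf2* lies under the 2-fold limit, so its call past that limit rests on dim pTV signal. *Crem* was 2.05-fold lower. Over pTV, where 3.32% (KTR) and 4.18% (K314/315R) of all tested probes were called higher, KTR had 2 higher (*Batf*, at least 1.47-fold with 1 of 3 KTR arrays well above background, and *Cebpb*, 3.01-fold). The bound of *Batf* in KTR also lies under the 2-fold limit, so that call rests on dim signal. K314/315R had 3 higher, *Batf* (at least 2.67-fold), *Cebpb* (3.36-fold) and *Cebpd* (2.57-fold), and 2 lower, *Crem* (2.37-fold) and *Bach1* (2.12-fold). Here "at least" sets the mean of the brighter group against the higher of each dim array's own signal and its lowest signal well above background.

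Of 20 tested transcripts of kinases and factors upstream of AP-1, none was called after TNFα, and 1 (wild type and KTR) or 2 (K314/315R) were called over pTV. Over all tested probes, 1.12% were called up after TNFα. Higher than in pTV were 3.59% (wild type), 3.32% (KTR) and 4.18% (K314/315R). Whether the counts of this list exceed these shares was not tested. *Map3k8*, which encodes the ERK-activating kinase TPL2, was well above background on no pTV array and higher in wild type (at least 5.16-fold), KTR (at least 4.39-fold) and K314/315R (at least 4.71-fold). *Mapkapk2* was 2.32-fold higher in K314/315R. Arrays measure transcripts, so the phosphorylation by which these kinases act was not measured.

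Known AP-1 target genes split in 2 directions between p65-expressing and pTV cells. Of 19 tested, 8 rose after TNFα, led by the EGF receptor ligands *Ereg* (5.27-fold) and *Areg* (4.11-fold, well above background on 1 of 3 unstimulated arrays) and by *Il6* (3.95-fold), and the median difference was 0.76. In wild type over pTV, 6 were higher and 5 lower. Higher were the matrix metalloproteinases *Mmp3* (91.8-fold, with 2 of 3 pTV arrays above background) and *Mmp13* (at least 16.5-fold) and *Il6* (6.47-fold), and lower were *Hbegf* (4.28-fold), *Areg* (3.66-fold) and *Vegfa* (2.61-fold). KTR over pTV gave 7 higher and 3 lower, K314/315R over pTV 7 and 6, with *Hbegf* 3.61-fold and 5.70-fold lower. Over all tested probes, 1.12% were called up after TNFα. Over pTV, 3.59% were called higher and 1.46% lower in wild type, 3.32% and 1.36% in KTR, and 4.18% and 4.68% in K314/315R.

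For contrast, 20 NF-κB target genes were counted on the same arrays, 2 of which (*Il6* and *Ccl2*) are also in the AP-1 target list. After TNFα 11 rose, led by *Icam1* (5.41-fold), *Il6* (3.95-fold) and *Cxcl10* (3.89-fold). In wild type over pTV 16 were higher and none lower, with a median difference of 2.25 against -0.73 for the 10 early genes. *Tnfaip2* was 23.4-fold higher, and *Icam1* (at least 132-fold) and *Saa3* (at least 1155-fold) were well above background on no pTV array. The mutants had 15 (KTR) and 17 (K314/315R) of the 20 higher than pTV, and KTR had *Nfkbie*, an inhibitor of NF-κB, 2.37-fold lower than wild type. *Ier3*, itself a known NF-κB target, rose after TNFα and was 1.75-fold lower in wild type than in pTV, below the 2-fold limit.

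**Figure D3:**
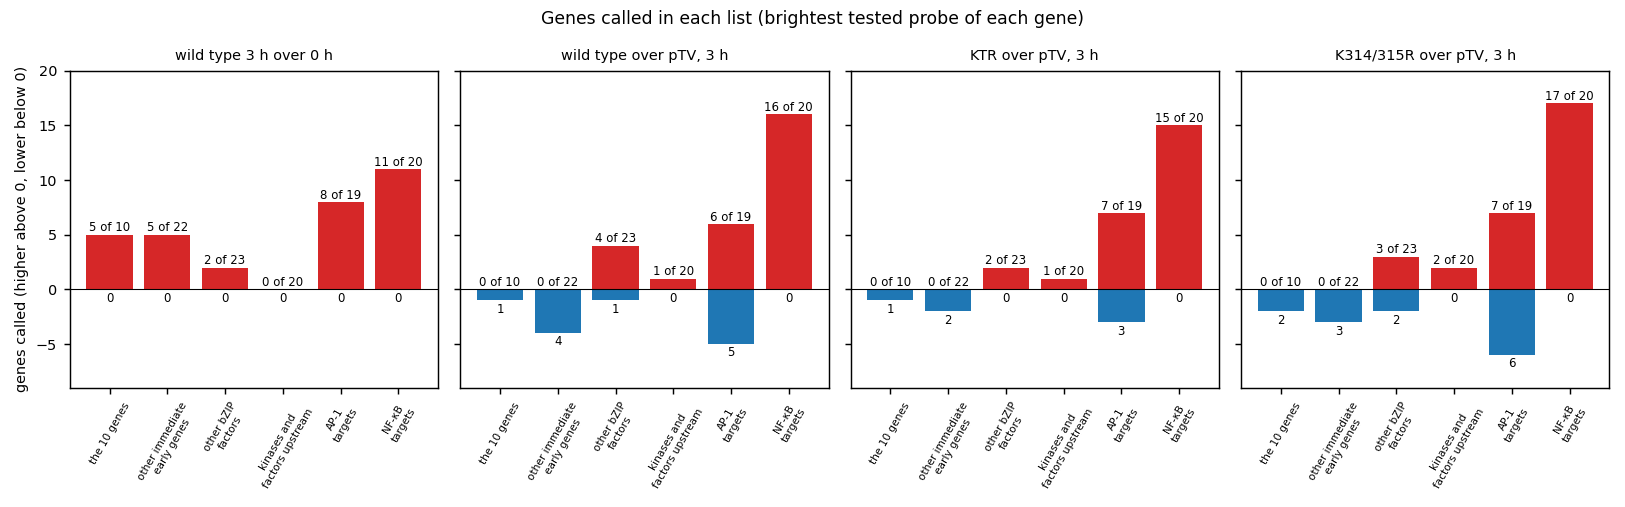
Number of genes called higher (above 0) or lower (below 0) among the 10 early genes and the 5 lists, in 4 comparisons, with the number tested written at each bar. NF-κB targets were called higher than in pTV in 15 to 17 of 20 cases, while the early genes and the other immediate early genes had 1 to 4 genes called lower and 0 higher.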

How the data were processed

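RNA of 14 cultures was labelled with Cy3 and hybridised to Agilent whole mouse genome arrays. The deposited scanner files hold intensity values from Agilent Feature Extraction (version 9.1 per the labels; the headers give 9.1.3.1 for both K314/315R arrays and 9.1.1.1 for the other 12), background-corrected by that software and not scaled. The deposited value table of the series holds the same intensity values multiplied by 1 factor per array (0.837 to 1.20, to within 1% for 99.7% to 99.8% of probes), with no log or centring, and was used as an alternative. Here log2 was taken of the processed signal, the 75th percentile of each array subtracted, flagged spots left out and spots of a probe averaged. Tested were probes that all arrays of some group showed well above background (22172 of 41174) in 1 limma fit (limma 3.58.1, R 4.3.3) with 5 group means, and p-values were adjusted by Benjamini-Hochberg over all of them. A call required an adjusted p under 0.05 and a fold over 1.8 or under 0.556 (2 and 0.5 over pTV). The script was tested on simulated data.

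Members and lists were chosen with earlier results of these data known. The genes named are the 10 members, up to 3 called genes at each end of each list in a comparison (brightest tested probe), the 2 nearest neighbours of a member by Pearson r, and the checks (*Rela* and marker genes); *Ccl2* and the neighbours left unnamed are exceptions. Replicate numbers matched slides 1 to 3: deviations from group means correlated at 0.308 to 0.613 for the 18 same-numbered pairs and at -0.510 to 0.0954 for the 36 others, so the numbers pair these arrays, and the blocked value is given where it changes a call. K314/315R numbers gave no clear pairing (-0.101 to 0.411 over 8 pairs). Promoter windows are those of RefSeq. The number of arrays limits the precision.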

Additional observations from a re-analysis of the deposited data

How the results depend on the processing

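With 2 or 3 arrays per group, p-values rest on few residual degrees of freedom, and a difference that missed the threshold is not shown to be absent. Depth in the sense of reads does not apply. All 12 probes were well above background, but the size of the differences of the dimmer ones depended on the background setting. *Fosb* had signals of 45.3 to 221 intensity units. With outlying local backgrounds replaced, *Fos* after TNFα differed by 1.00 (1.47 in the main setting). *Fosb* then differed from pTV by -0.68 in wild type (-1.07) and by -1.05 in K314/315R (-1.75). Dim signal thus limits these genes as well as the comparison lists. Calls after TNFα numbered 5 and those over pTV 1 (wild type), 1 (KTR) and 2 (K314/315R), with 0 for each mutant over wild type under every alternative run. Without the fold limit they numbered 8, 5, 5 and 6. With an unadjusted p, a replicate block or a random block for the slide, wild type and KTR over pTV had 2 calls each (*Jun* and *Fosb*). The replicate block changed no other call past the fold limit. Leaving out each array in turn gave 4 to 6 calls after TNFα, 1 to 3 for wild type, 0 to 2 for KTR and 1 to 4 for K314/315R over pTV. The lowest and highest of these came without KTR replicate 1 (0) or 3 (2) and without pTV replicate 2 (2) for KTR, without pTV replicate 2 (3) or 3 (2) and wild type replicate 3 (2) for wild type, and without K314/315R replicate 2 (4), pTV replicate 2 (3) or pTV replicate 3 (1) for K314/315R.

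Normexp on the local background as deposited left 0 calls after TNFα and 0 in KTR and K314/315R over pTV, and 1 in wild type over pTV. Local backgrounds reached 65292 on wild type replicate 1 at 3 h and 20381.5 on pTV replicate 2, where this setting moved bright probes by -0.97 and -0.52. With the backgrounds marked as outliers set to the array's median, an alternative chosen after seeing the data, the shifts were -0.06 and -0.07 and the counts were 5, 1, 1 and 2. That planned setting also moved the median of all probes after TNFα from -0.04 to 0.07 and turned the uncalled differences of *Fosb* (0.66) and *Jund* (-0.31) after TNFα and of *Fos* in K314/315R over pTV (-0.047). Other uncalled differences near 0 turned for *Fosl2* in K314/315R over pTV, to -0.012 with backgrounds replaced and to -0.38 as the mean of its probes. Leaving out arrays in turn, they ranged from -0.070 to 0.21 for *Fosl2* and from -0.023 to 0.35 for *Fos* in K314/315R over pTV, and from -0.051 to 0.048 for *Jund* and -0.59 to 0.052 for *Fosb* after TNFα. Without a filter on dim probes *Atf3* was no longer called after TNFα (adjusted p = 0.0605). Among the 18 other differences of a mutant from wild type, 10 changed sign in some refit and none was called. Over all tested probes, the share of calls that were higher moved from 47.1% to 59.6% in K314/315R over pTV and from 13.8% to 42.1% in K314/315R over wild type under quantile normalization. Calls in the latter fell from 268 to 114 under quantile normalization, to 65 with backgrounds replaced and to 0 with normexp as deposited. With backgrounds replaced, calls over all tested probes were 231 after TNFα (344 in the main setting), 681 (1118), 659 (1038) and 1051 (1964) in wild type, KTR and K314/315R over pTV and 20 (37) in KTR over wild type, and with normexp as deposited 23, 326, 337, 445 and 1. The cause of these changes was not tested.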
